A study of Mus musculus with 10 samples.

Results

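The genes of the CYP4 family encode fatty acid omega-hydroxylases, and 9 of them were followed in the kidney cortex of diabetic db/db mice and non-diabetic db/m mice. The members were Cyp4a10, Cyp4a12a, Cyp4a14, Cyp4a31, Cyp4b1, Cyp4f13, Cyp4f14, Cyp4f15 and Cyp4v3. They were chosen by symbol through the Entrez Gene ID of each row, and all 9 had a row among the 16475 gene rows of the table. Another 12 Cyp4 genes were sought, of which 4 had a named row, Cyp4f16, Cyp4f18, Cyp4f39 and the pseudogene Cyp4f41-ps.

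The data are Affymetrix arrays of cortex depleted of glomeruli, taken from BKS mice aged 24 weeks. There were 5 diabetic db/db mice, in which both copies of Lepr, the gene of the leptin receptor, carry the db mutation. Their 5 non-diabetic db/m littermates, by the usual naming of this strain, are heterozygous for db. The labels state no treatment and no sex, and each mouse gave 1 array. Values are log2 expression levels. They measure brightness, so levels of different genes are not set against each other.

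CYP4 enzymes sit in the endoplasmic reticulum and place a hydroxyl group on the last carbon of a fatty acid, which is then oxidised to a dicarboxylic acid and shortened in peroxisomes. With arachidonic acid as substrate the same step yields 20-HETE, a lipid that constricts renal vessels and slows sodium transport in the tubule. In mouse kidney Cyp4a10 and Cyp4a14 are known targets of the fatty acid receptor PPAR-alpha, while Cyp4a12a and Cyp4b1 are known to be induced by androgens, and Cyp4a12a is regarded as the main maker of 20-HETE.

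Cyp4a14 rose more than 5-fold in db/db cortex, and it was the 1 member whose change passed the test in every alternative fit that was run. Cyp4a10 rose slightly, Cyp4a12a and Cyp4b1 fell slightly, and the other 5 members did not pass. At an adjusted p under 0.05, 4 of the 9 members passed (44.4%), 2 up and 2 down in db/db, where 6.51% of all genes passed. Over all genes 2.96% passed as higher and 3.54% as lower. The 5 mice of one group lay wholly to one side of the other 5 in 4 of the 9 members, 3 of them higher and 1 lower in db/db, against 10.2% of all genes, 4.35% higher and 5.85% lower. An unadjusted p under 0.05 was found for 6 of 9 members and 21.5% of all genes. The median change was 0.05 over the members and -0.03 over all genes. Without db/db mouse 1, 3 members were higher and 2 lower, where 12.8% of all genes passed, 6.84% as higher and 5.93% as lower. In fits that each left out 1 mouse the number of members called ranged from 1 to 5. It was 1, Cyp4a14, when any of db/db 2 to 5 or db/m 2 to 5 was left out.

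**Figure D1:**
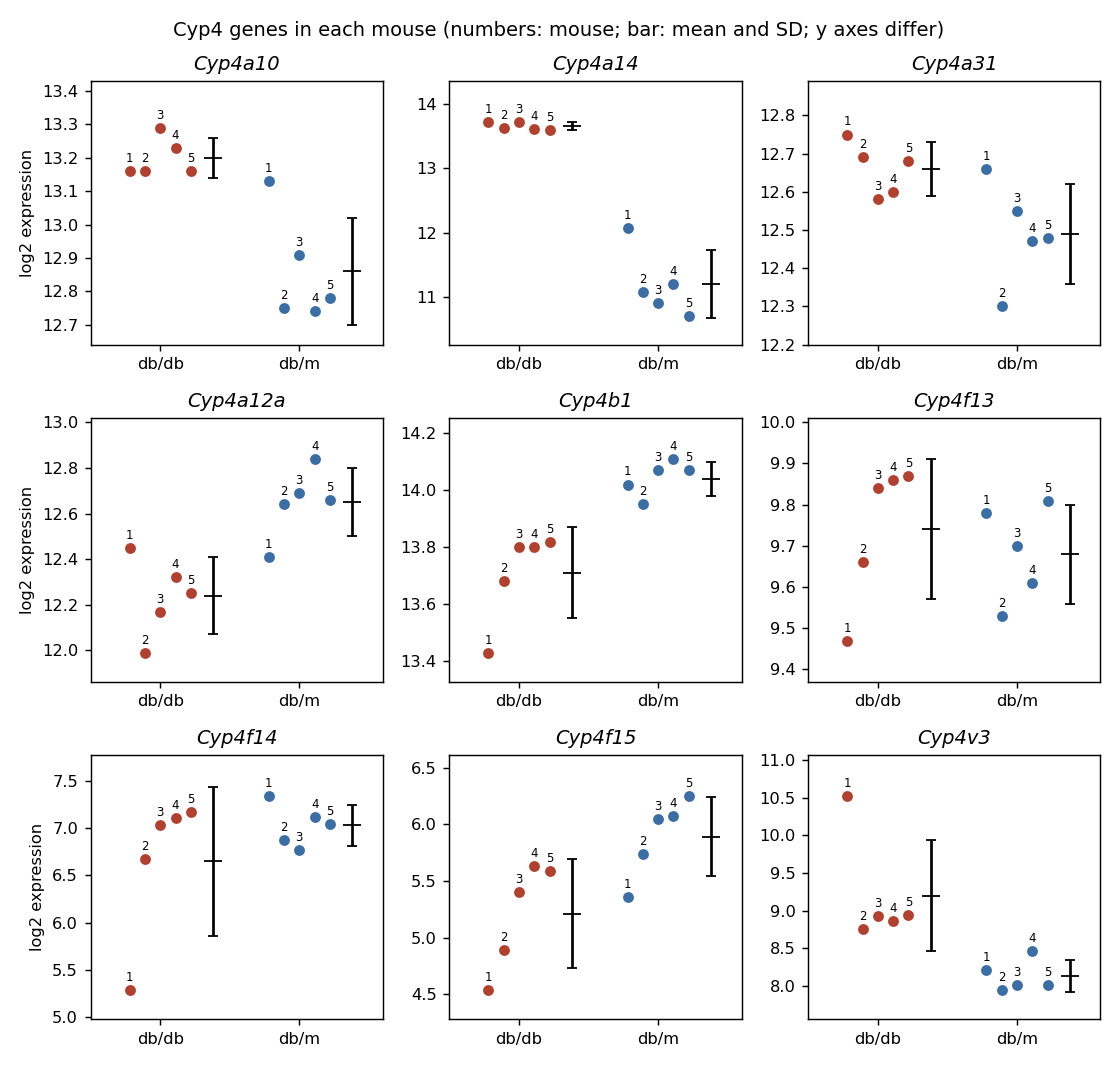
Log2 expression of the 9 Cyp4 members in each mouse, db/db in red and db/m in blue, with mouse numbers over the points and the mean and SD beside each group. The y axes differ. Cyp4a14 lies between 13.59 and 13.72 in the db/db mice and between 10.72 and 12.08 in the db/m mice.

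One animal stood apart. Db/db mouse 1 had higher leukocyte and injury genes than any other mouse. The mean log2 level of 6 leukocyte markers was 12.38 in this mouse, 7.59 to 10.27 in the other db/db mice and 8.16 to 8.71 in db/m mice. The mean of 4 tubular injury markers was 13.07 in it, 6.90 to 9.11 in the other db/db mice and 6.39 to 7.99 in db/m mice. Markers of the first proximal tubule segments, S1 and S2, averaged 12.56 in this mouse, 13.17 to 13.20 in the other db/db mice and 12.93 to 13.16 in db/m mice, with 0 of 7 past the threshold. Podocyte markers, which belong to the glomeruli that had been removed, averaged 9.11 to 9.58 in db/db and 8.83 to 9.17 in db/m, and 2 of 4 rose, or 4 of 4 without db/db mouse 1. Without that mouse 3 of 3 distal tubule markers and 2 of 3 collecting duct markers rose too, and 0 of either with it. Over all genes 2.96% passed as higher with all arrays and 6.84% without db/db mouse 1. Distal tubule markers averaged 10.56 in db/db mouse 1, 12.99 to 13.19 in the other db/db mice and 12.59 to 12.85 in db/m mice. Collecting duct markers averaged 7.79 in db/db mouse 1, 9.89 to 10.52 in the other db/db mice and 9.35 to 9.93 in db/m mice. In whole tissue a loss of cells of a type and less RNA per cell cannot be told apart.

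Among the Cyp4a genes, Cyp4a14 encodes an omega-hydroxylase that fasting and PPAR-alpha agonists induce in mouse liver and kidney. Its log2 level was 13.72, 13.62, 13.71, 13.61 and 13.59 in db/db mice 1 to 5, and 12.08, 11.09, 10.92, 11.21 and 10.72 in db/m mice 1 to 5. The groups did not overlap, and db/m mouse 1 was the highest of its group. The change was 2.44 ± 0.22 (log2, standard error), a 5.44-fold rise (95% interval of the log2 change 1.97 to 2.92, limma adjusted p = 0.000376). The SD was 0.06 in db/db and 0.52 in db/m (n = 5 each), on a scale whose highest gene value was 14.53. Whether bright values are compressed near that top was not tested. Without db/db mouse 1 the change was 2.43 ± 0.23 (adjusted p = 0.000359), and db/db mouse 1 itself stood 2.51 above the db/m mean.

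Cyp4a10, another PPAR-alpha target that hydroxylates medium- and long-chain fatty acids, moved in the same direction by a far smaller amount. Its log2 level was 13.16, 13.16, 13.29, 13.23 and 13.16 in db/db mice 1 to 5, and 13.13, 12.75, 12.91, 12.74 and 12.78 in db/m mice 1 to 5. The lowest db/db mouse was just above db/m mouse 1, which stood 0.33 above the mean of the other db/m mice. The change was 0.34 ± 0.09, a 1.26-fold rise (adjusted p = 0.0446). It passed in 2 of the 10 fits that left out 1 mouse, with an adjusted p of up to 0.105 without db/m mouse 4, and it did not pass with arrays centred on their medians (0.27, adjusted p = 0.119).

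Cyp4a31 lies beside Cyp4a10 and is a close copy of it. Its level was 12.58 to 12.75 in db/db and 12.30 to 12.66 in db/m, and the groups overlapped. The change of 0.17 ± 0.08 did not pass (adjusted p = 0.235, 95% interval 0.00 to 0.34). Cyp4a10, Cyp4a31 and Cyp4a32 are close in sequence, as are Cyp4a12a and Cyp4a12b. How far probes of one gene also bound transcripts of its copies was not tested. Cyp4a32 and Cyp4a12b were not analysed here.

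Cyp4a12a, the androgen-induced arachidonic acid hydroxylase, fell. Its log2 level was 12.45, 11.99, 12.17, 12.32 and 12.25 in db/db mice 1 to 5, and 12.41, 12.64, 12.69, 12.84 and 12.66 in db/m mice 1 to 5. Db/db mouse 1, the highest of its group, was above db/m mouse 1, the lowest of its group, so the groups overlapped by this pair. The change was -0.41 ± 0.10, to 0.753 of the db/m level (adjusted p = 0.0452), and -0.46 ± 0.10 without db/db mouse 1 (adjusted p = 0.0137). It passed in 2 of 10 fits that left out 1 mouse, with an adjusted p of up to 0.115 without db/m mouse 3, and missed the threshold when quantile normalisation was repeated (adjusted p = 0.0587).

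Cyp4b1, which hydroxylates medium-chain fatty acids and activates some plant and fungal toxins, fell as well. Its log2 level was 13.43, 13.68, 13.80, 13.80 and 13.82 in db/db mice 1 to 5, and 14.02, 13.95, 14.07, 14.11 and 14.07 in db/m mice 1 to 5. All db/db mice were below all db/m mice. The change was -0.34 ± 0.08 (adjusted p = 0.0441), with means of 13.71 ± 0.16 in db/db and 14.04 ± 0.06 in db/m (SD, n = 5 each). The db/m values were close to the top of the scale. The call was kept in 1 of 10 fits that left out 1 mouse, the one without db/db mouse 1 (-0.27 ± 0.06, adjusted p = 0.0184), and the adjusted p reached 0.112 without db/m mouse 3.

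The Cyp4f genes are known for inactivating leukotriene B4 and related lipids, and none of the 3 members passed in limma with all arrays and no block. Cyp4f13 had a level of 9.47 to 9.87 in db/db and 9.53 to 9.81 in db/m, with a change of 0.05 ± 0.10 (adjusted p = 0.793, 95% interval -0.16 to 0.27). Cyp4f14, a leukotriene B4 hydroxylase in mouse, was at 5.29, 6.67, 7.03, 7.11 and 7.17 in db/db mice 1 to 5, and at 7.34, 6.87, 6.77, 7.12 and 7.04 in db/m mice 1 to 5. Its change of -0.37 ± 0.33 (adjusted p = 0.556) rested on db/db mouse 1, the mouse with the high leukocyte and injury markers. Without that mouse the change was -0.03 ± 0.14 (adjusted p = 0.915).

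Cyp4f15 was dim, at 4.54, 4.89, 5.40, 5.63 and 5.59 in db/db mice 1 to 5, and at 5.36, 5.74, 6.05, 6.07 and 6.25 in db/m mice 1 to 5. The groups overlapped through db/m mouse 1. Its change of -0.69 ± 0.24 did not pass (adjusted p = 0.127). With the mouse number as a block it was -0.69 (adjusted p = 0.0279).

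Cyp4v3 is the mouse counterpart of human CYP4V2, the gene of Bietti crystalline dystrophy, and hydroxylates medium-chain and polyunsaturated fatty acids. Its log2 level was 10.52, 8.75, 8.93, 8.86 and 8.94 in db/db mice 1 to 5, and 8.21, 7.95, 8.02, 8.46 and 8.02 in db/m mice 1 to 5. All db/db mice were above all db/m mice, and db/db mouse 1 was far above the other 4. With all arrays the change was 1.07 ± 0.31 and did not pass (adjusted p = 0.0706). Without db/db mouse 1 Cyp4v3 rose by 0.74 ± 0.11, a 1.67-fold rise (adjusted p = 0.00247).

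Of the other Cyp4 genes Cyp4f16 rose 2.06-fold. Its log2 level was 10.50, 9.63, 9.50, 9.32 and 9.40 in db/db mice 1 to 5, and 8.53, 8.58, 8.84, 8.71 and 8.48 in db/m mice 1 to 5. The groups did not overlap. The change was 1.04 ± 0.20 (adjusted p = 0.0166) and 0.83 ± 0.09 without db/db mouse 1 (adjusted p = 0.000738). It passed in all 10 fits that left out 1 mouse, with an adjusted p of up to 0.0438. Cyp4f18, the leukotriene B4 hydroxylase of mouse neutrophils, was at 8.01 in db/db mouse 1, at 4.71 to 5.56 in the other db/db mice and at 4.53 to 4.94 in db/m mice. Its change was 0.94 ± 0.52 (adjusted p = 0.335), and the leukocyte markers given above were also highest in db/db mouse 1; their part in this value was not tested. Cyp4f39, whose human counterpart acts on very long fatty acids in skin, and the pseudogene Cyp4f41-ps had changes of -0.03 ± 0.15 and 0.03 ± 0.15 (adjusted p = 0.923 and 0.924).

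**Figure D2:**
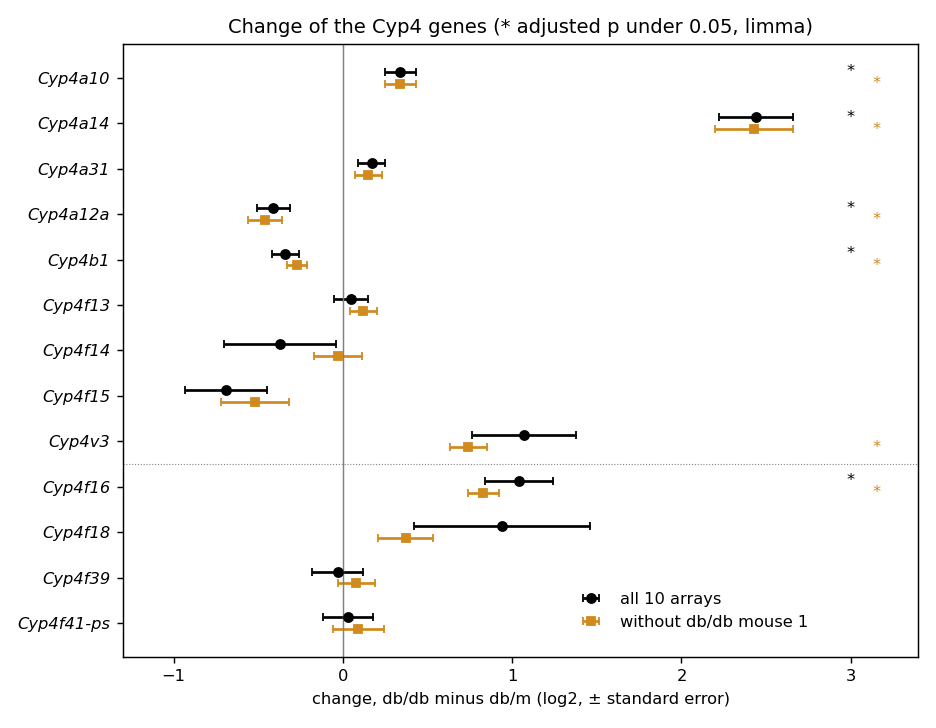
Change of each Cyp4 gene, in db/db less db/m, as log2 units, with its standard error, for all 10 arrays (black) and without db/db mouse 1 (orange). Asterisks mark an adjusted p under 0.05, and the 4 genes under the dotted line are not members. Cyp4a14 stands at 2.44, and Cyp4v3 passed only without db/db mouse 1 of these 2 fits.

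Promoter sequences were supplied for 8 of the 13 Cyp4 genes with a row, and those of Cyp4b1 and Cyp4f16 are shown because these genes passed the test with all arrays. Each is the run of 250 bases just before the transcription start in RefSeq, build GRCm38.p6, printed 5′ to 3′ on the strand of the gene. Cyp4b1 is on the minus strand at chr4:115647722-115647971 and Cyp4f16 on the plus strand at chr17:32536307-32536556. Cyp4a10, Cyp4a12a, Cyp4a14, Cyp4a31 and Cyp4f41-ps are the other 5. Capitals mark matches to the motifs named below.
Cyp4b1: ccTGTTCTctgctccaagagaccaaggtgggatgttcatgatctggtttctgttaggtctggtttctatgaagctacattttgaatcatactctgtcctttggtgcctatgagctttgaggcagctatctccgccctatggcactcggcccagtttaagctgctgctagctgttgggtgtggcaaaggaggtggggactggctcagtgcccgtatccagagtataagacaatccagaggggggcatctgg
Cyp4f16: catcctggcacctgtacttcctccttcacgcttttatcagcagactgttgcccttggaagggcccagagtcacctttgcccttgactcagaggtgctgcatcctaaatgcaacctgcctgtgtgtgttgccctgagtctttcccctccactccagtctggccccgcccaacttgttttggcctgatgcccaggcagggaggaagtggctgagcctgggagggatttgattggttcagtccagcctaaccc

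Letter patterns were searched on both strands of these windows. AGGTCA, the core site of many nuclear receptors, had no match in either window, and 14.0% of 32851 RefSeq windows of this length held one. A direct repeat of 2 copies of AGGNCA with 1 base between them, of the kind PPAR-alpha binds with RXR, had no match either, and 0.338% of windows held one. AGAACA, a core site of the androgen receptor, had 1 match in the Cyp4b1 window, as TGTTCT on the strand of the gene with its first base 248 bases before the start, and 16.1% of windows held one. These matches are letters only and no binding was measured.

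The members Cyp4a12a, Cyp4a14, Cyp4a10, Cyp4a31 and Cyp4b1 lie in that order on chromosome 4, which also carries Lepr, by the RefSeq table of GRCm38.p6. Along this run the changes were -0.41, 2.44, 0.34, 0.17 and -0.34, so Cyp4a12a, which fell, and Cyp4a14, which rose, were next to each other among the measured genes. Cyp4a12b and Cyp4a30b lie between them and were not analysed here. The nearest measured gene before the run, Pdzk1ip1, had a change of -0.04 ± 0.06 (adjusted p = 0.756), and the nearest after it, Efcab14, had a change of -0.08 ± 0.09 (adjusted p = 0.655). None of the 5 measured genes on either side passed in limma, and 1, Stil, had an unadjusted p under 0.05 (0.75 ± 0.24, adjusted p = 0.0982). In a wider window of 20 measured genes on each side, 2 were higher and 3 lower of 40, or 12.5%, against 6.51% of all genes, and 22.5% passed without db/db mouse 1, against 12.8% of all genes.

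**Figure D3:**
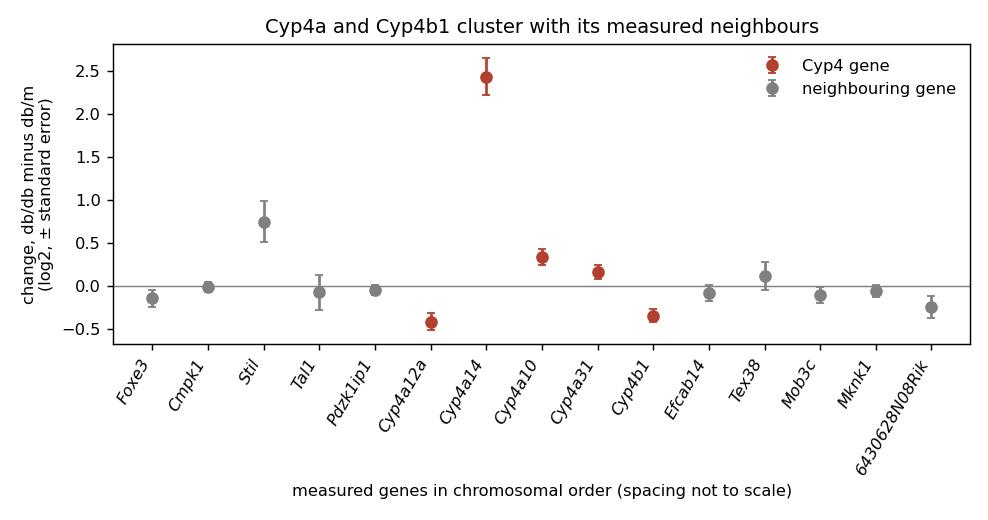
Change, in db/db less db/m, as log2 units, with standard errors, of the Cyp4a and Cyp4b1 genes (red) and of the 5 measured genes on each side (grey), in chromosomal order with spacing not to scale. Cyp4a14 stands at 2.44 between its nearest measured genes at -0.41 and 0.34.

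Of the members on chromosome 4, 4 of 5 passed, and of those on chromosomes 8 and 17, 0 of 4 by limma, with Cyp4f15 and Cyp4v3 at an unadjusted p of 0.0167 and 0.00607. This split was not stable. Cyp4a10, Cyp4a12a and Cyp4b1 passed in only 2, 2 and 1 of the 10 fits that left out 1 mouse. Cyp4f15 passed with the block (adjusted p = 0.0279) and Cyp4v3 without db/db mouse 1 (adjusted p = 0.00247). Cyp4f16, not a member, lies on chromosome 17 and passed with all arrays (adjusted p = 0.0166). On chromosome 4 as a whole 40 genes were higher and 40 lower of 994, or 8.05%, against 6.41% on all other chromosomes. Between Lepr and Cyp4a12a 3 were higher and 6 lower of 74 measured genes, or 12.2%. Whatever sequence is inherited with the Lepr alleles in this region differs with the group, so it and diabetes cannot be told apart here. Lepr itself was dim, at 4.48 ± 0.14 in db/db and 4.56 ± 0.09 in db/m (SD, n = 5 each), and did not pass (adjusted p = 0.637). Its level says nothing of the db mutation, which alters splicing.

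Genes that PPAR-alpha controls were examined because Cyp4a10 and Cyp4a14 belong to them. This list and those that follow were chosen with earlier results of these data known, so their counts are a description only. Of 31 measured genes of that list, 4 rose and 1 fell, with a median change of 0.09. Over all genes 2.96% passed as higher and 3.54% as lower, and the median change was -0.03. The fatty acid binding gene Fabp1 rose by 2.67 ± 0.37 (adjusted p = 0.00391), the lipoprotein lipase inhibitor gene Angptl4 by 1.56 ± 0.33 (adjusted p = 0.0233), the acyl-CoA thioesterase gene Acot1 by 0.64 ± 0.14 (adjusted p = 0.0265) and Creb3l3, a transcription factor gene of fasting metabolism, by 0.59 ± 0.10 (adjusted p = 0.0102). The fatty acid uptake gene Cd36 fell by 2.12 ± 0.22 (adjusted p = 0.000739). Without db/db mouse 1, 7 rose and 1 fell, where 6.84% of all genes passed as higher and 5.93% as lower. Acot1 passed in 5 and Angptl4 in 7 of the 10 fits that left out 1 mouse, with an adjusted p of up to 0.063 and 0.0626.

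**Figure D4:**
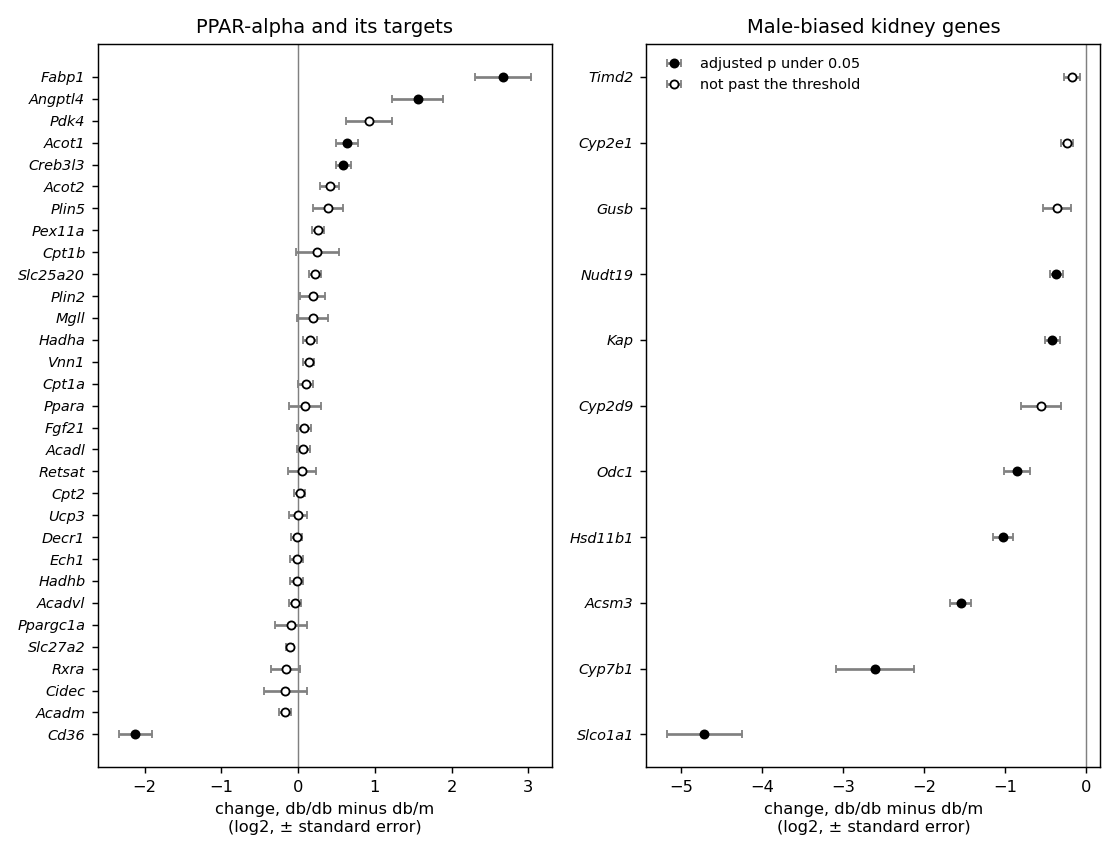
Change, in db/db less db/m, as log2 units, with standard errors, for the measured genes of the PPAR-alpha list (left) and the male-biased list (right); filled points passed an adjusted p of 0.05. In the PPAR-alpha list 4 genes passed above 0 and 1 below, and in the male-biased list 7 passed below 0. Over all genes 2.96% passed above 0 and 3.54% below. Both lists were chosen with earlier results of these data known.

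Genes expressed more in male than in female kidney were examined because Cyp4a12a and Cyp4b1 are among them. This list too was chosen with earlier results of these data known. Of 11 measured, 7 fell and 0 rose, with a median change of -0.56. Over all genes 3.54% passed as lower and 2.96% as higher, and the median change was -0.03. Slco1a1, an organic anion transporter gene, changed by -4.71 ± 0.46 (adjusted p = 0.00051), the oxysterol hydroxylase gene Cyp7b1 by -2.61 ± 0.48 (adjusted p = 0.0123) and the acyl-CoA synthetase gene Acsm3 by -1.55 ± 0.13 (adjusted p = 0.000338). Hsd11b1, of glucocorticoid activation, changed by -1.03 ± 0.12 (adjusted p = 0.00181), Odc1, of polyamine synthesis, by -0.86 ± 0.16 (adjusted p = 0.0133), and Kap, the classic androgen-regulated kidney gene, by -0.42 ± 0.09 (adjusted p = 0.0211). Kap passed in 7 of the 10 fits that left out 1 mouse. Without db/db mouse 1, 9 fell, where 5.93% of all genes passed as lower. Slco1a1, Cyp7b1 and Acsm3 are also markers of the last proximal tubule segment, S3, whose 5 markers averaged 9.15 to 10.35 in db/db and 12.47 to 13.13 in db/m; the part of S3 cells in the Cyp4 values was not tested.

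Of 3 measured genes with female bias none passed in limma with all arrays, and 2 had an unadjusted p under 0.05. Their median change was -0.89, below that of the male-biased list. The one with the lowest p was Cyp2d12 (-0.89 ± 0.25, adjusted p = 0.0672), which passed without db/db mouse 1 (-0.64, adjusted p = 0.0153), and Akr1c18 had a change of -1.60 ± 0.65 (adjusted p = 0.184). Xist, which the inactive X chromosome expresses, was at 3.37 to 3.81 in db/db and 3.65 to 3.73 in db/m, and the Y-linked gene Eif2s3y was at 11.69 to 11.91 in db/db and 11.74 to 12.06 in db/m. Both ranges overlapped between the groups. Xist was thus dim and Eif2s3y bright in every mouse, which is the pattern of male tissue. Of the 3 measured sex-linked genes Uty had the lowest p (-0.38 ± 0.12, adjusted p = 0.095).

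The steps that follow omega-hydroxylation were examined next. Of 18 measured genes that oxidise, carry or shorten the products, 1 rose and 1 fell, with a median change of -0.03. Over all genes 6.51% passed. Without db/db mouse 1, 3 of the 18 rose and 2 fell, where 12.8% of all genes passed. Without db/m mouse 3 only 1 of the 18 passed, as lower, where 490 of all 16475 genes passed. The count went up in other fits. It was 6 with trend and robust eBayes, where 1094 of all genes passed, and 6 with array weights, where 2641 did. Adh1, an alcohol dehydrogenase gene whose enzyme can oxidise omega-hydroxy fatty acids, was at 12.83 to 13.19 in db/db and 13.57 to 13.71 in db/m and fell by 0.56 ± 0.08 (adjusted p = 0.00465). Acot3, a peroxisomal thioesterase gene, rose by 1.02 ± 0.20 (adjusted p = 0.0173). Its groups overlapped through db/db mouse 1, at 10.80, and db/m mouse 1, at 10.91. None of 3 measured cytochrome b5 and b5 reductase genes, which can pass electrons to P450 enzymes, passed in limma, while 1 had an unadjusted p under 0.05, Cyb5a (-0.24 ± 0.08, adjusted p = 0.11).

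Enzymes that compete for arachidonic acid or clear its epoxides were mixed. Of 16 measured epoxygenase and epoxide hydrolase genes 2 rose and 1 fell, with a median change of -0.10. Over all genes 2.96% passed as higher and 3.54% as lower. Ephx1, the microsomal epoxide hydrolase gene, was at 11.85 to 12.55 in db/db and 10.79 to 11.06 in db/m, and rose by 1.23 ± 0.12 (adjusted p = 0.000495). Of the Cyp2j epoxygenase genes, which also lie on chromosome 4, Cyp2j6 rose by 0.55 ± 0.06 (adjusted p = 0.0014) and Cyp2j13 fell by 1.10 ± 0.25 (adjusted p = 0.0315). Cyp2j13 passed in 3 of the 10 fits that left out 1 mouse, with an adjusted p of up to 0.0817. Of 5 measured genes of arachidonic acid release 1 fell, the phospholipase gene Pla2g6, at 5.56 to 5.83 in db/db and 6.14 to 6.37 in db/m (-0.58 ± 0.08, adjusted p = 0.00391). The median change of these 5 was 0.13, and 3 had an unadjusted p under 0.05, where 21.5% of all genes did. Besides Pla2g6 these were Pla2g4a and Pla2g15, with changes of 0.70 ± 0.29 and 0.42 ± 0.16 that did not pass (adjusted p = 0.205 and 0.161).

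**Figure D5:**
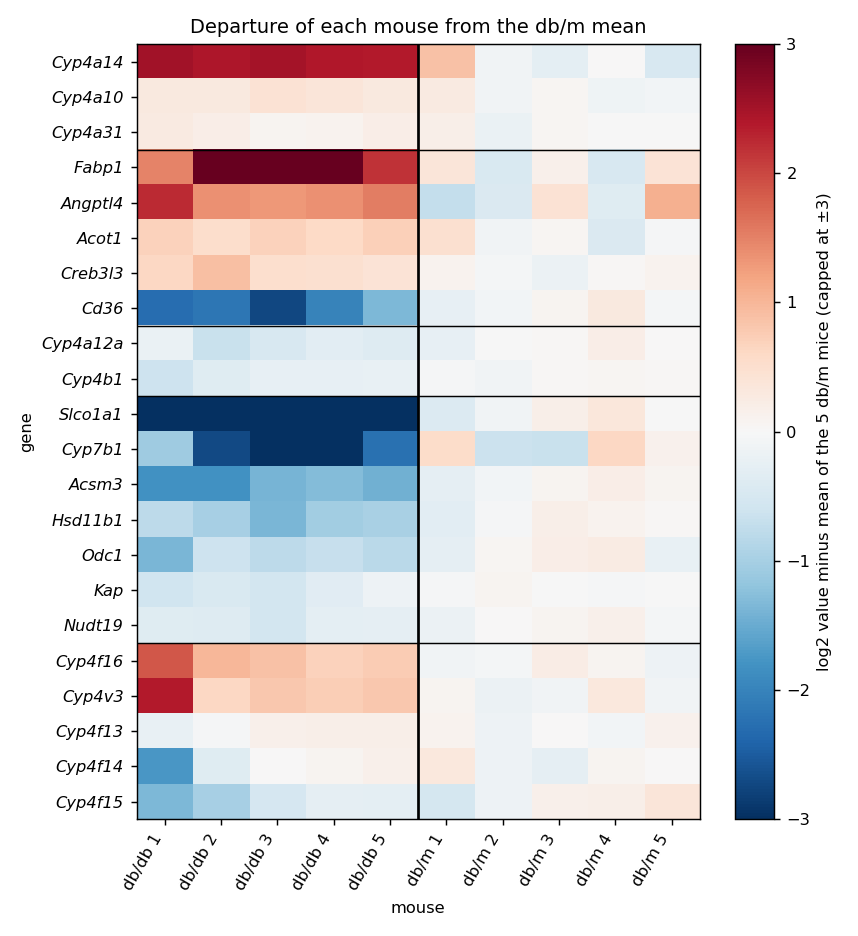
Log2 value of each mouse less the mean of the 5 db/m mice, from -3 (blue) to 3 (red) and capped there, for Cyp4a genes, called PPAR-alpha genes, Cyp4a12a and Cyp4b1, called male-biased genes, and other Cyp4 genes, from top to bottom. Cyp4a14 is high in all 5 db/db mice, and among the db/m mice it is highest in db/m mouse 1.

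For each called member the genes with the most similar profile over the 10 arrays were found, by the root-mean-square difference of their values after the db/m mean of each gene was subtracted. For Cyp4a14 the nearest was a row with no name here (0.44 log2 units), followed by Crybg2 (0.51) and the complement protease gene Masp1 (0.58). For Cyp4a10 they were Ofd1 (0.08), Mfsd13a (0.09) and Spata24 (0.10). For Cyp4a12a they were Cdc42se1 (0.10), Elovl7 (0.11) and Nudt19 (0.11), and Nudt19 is a male-biased gene of the list above. For Cyp4b1 they were a row with no name here, Timp3 and Mindy2 (0.05 each). With small changes many genes lie this near, and the measure describes these arrays only.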

How the data were processed

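Kidney cortex RNA of 10 mice was measured on Affymetrix arrays. The deposited unit is log2. The submitters' processing notes name RMA, whose version and the regrouping of probes into 1 row per Entrez Gene ID are not given in the sources used here. Across arrays, deposited log2 values lay between 2.50 and 14.53 (array medians 8.46 to 8.66) and entered the tests unaltered. Of 16539 rows 64 control rows were left out. Of the 16475 gene rows 15780 were named by the supplied platform annotation, 15752 of them matched to RefSeq by Entrez ID, and 695 were tested but not named. Groups follow the titles. Arrays give no counts, so precision is limited by the number of arrays.

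Db/db was compared with db/m by limma 3.58.1 (lmFit, eBayes) in R 4.3.3, two-sided, with Benjamini-Hochberg adjustment over all gene rows and a threshold of 0.05. Every adjusted p is from this fit unless an alternative is named. The code was tested on simulated data. Alternatives were a replicate block by mouse number, removal of dim genes (lowest 25% by mean), repeated quantile normalisation, median centring, trend and robust eBayes, array weights, an unmoderated model, stricter thresholds and each array left out. No set test was run.

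The members and lists were chosen with earlier results of these data known. Named were all Cyp4 genes with a row, Lepr, in each list up to 6 called genes with the largest change or the gene with the lowest p, and the 3 nearest profiles of each called member. Pdzk1ip1, Efcab14, Stil, Akr1c18, Xist, Eif2s3y, Pla2g4a and Pla2g15, outside that rule, were added after their values were seen. Figures used Python 3.11.15 and matplotlib 3.10.9.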

Additional observations from a re-analysis of the deposited data

Results flagged for a closer look

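Within groups of 5 mice, 8 of 92 group values checked over 46 named genes held a mouse far from the others by Dixon's ratio, which is the gap to the nearest mouse over the whole range, with a critical value of 0.71. Chance flags about 1 in 20 groups. All 8 were db/db mouse 1. Among Cyp4 genes it was low for Cyp4f14 (ratio 0.734, log2 level 5.29) and high for Cyp4v3 (0.892, level 10.52), Cyp4f16 (0.739, level 10.50) and Cyp4f18 (0.745, level 8.01). Among the other genes it was low for Acot3 (0.771, level 10.80) and Odc1 (0.767, level 12.32), and high for Angptl4 (0.751, level 13.12) and Cdc42se1 (0.895, level 12.00). Cyp4a14, Cyp4a10, Cyp4a12a and Cyp4b1 were not among them.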

How the results depend on the processing

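Cyp4a14 kept its direction and its call in the 18 alternative fits, with changes of 2.32 to 2.66. The number of members called, 4, became 2 with the replicate block, namely Cyp4a14 and Cyp4f15, which did not pass without the block. It became 2 with arrays centred on their medians, namely Cyp4a14 and Cyp4a12a. It was 1 in the unmoderated model, 1 at an adjusted p under 0.01 and 1 with at least a 1.5-fold change. When 1 array was left out it ranged from 1 to 5. The 1072 genes called overall became 393 with the replicate block, 2641 with array weights, 279 at an adjusted p under 0.01 and 575 with at least a 1.5-fold change, and ranged from 490 to 2104 when 1 array was left out. Centring changed the split to 363 higher and 751 lower, against 488 and 584 without it. With the block and without db/db mouse 1, 5 members and 985 genes were called. The deviations of same-numbered mice from their group means correlated at -0.0948 to 0.00599 across genes. These means include db/db mouse 1, which stood apart, so the values cannot show whether the mouse numbers paired the samples. With the block Cyp4f15 passed (adjusted p = 0.0279) and Cyp4f16 did not (0.0666). Over 161 fits of single members 120 kept the side of the threshold, 35 lost the call, 5 gained it and 1 moved without a call, and 0 turned a called direction. The cause of these differences was not tested. Signal over background was not given, so how far it limits the dim gene Cyp4f15 was not tested.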

Other observations

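Db/m mouse 1 was the control nearest to the db/db mice in some of the gene groups described. For each called gene the db/m mouse closest to the db/db side was recorded. It was db/m mouse 1 for 3 of the 4 called members (Cyp4a14, Cyp4a10 and Cyp4a12a), 6 of the 7 called male-biased genes and 2 of the 5 called PPAR-alpha genes, where db/m mouse 5 was nearest for the other 3. Over all 1072 called genes it was db/m mouse 1 for 334 (31.2%), db/m mouse 2 for 288, db/m mouse 3 for 94, db/m mouse 4 for 161 and db/m mouse 5 for 195. Relative to the mean of the other db/m mice, db/m mouse 1 stood 1.10 higher for Cyp4a14, 0.33 higher for Cyp4a10 and 0.21 higher for Cyp4a31, while Cyp4a12a and Cyp4f15 had values of -0.30 and -0.67. The remaining members had values of -0.03 (Cyp4b1), 0.11 (Cyp4f13), 0.39 (Cyp4f14) and 0.10 (Cyp4v3). For Cyp4f14, whose change was -0.37, db/m mouse 1 thus lay away from db/db. So it did for Cyp4f16, with -0.12 beside a change of 1.04. No pooled test was made of this pattern, which was noticed in these values.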
